A study of Aspergillus niger with 8 samples.

Results

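The starch degradation genes followed here were glaA (An03g06550), agdA (An04g06920, listed as aglU in the reference gene table), agdB (An01g10930) and aamA (An11g03340), together with amyR (An04g06910), the gene of their transcriptional activator. They were chosen by identifier, as 5 of the 15431 genes in the count tables of Aspergillus niger strain N402, a laboratory strain. Their transcript levels were read by RNA sequencing of mycelium in 4 conditions, with 2 shake flask cultures (A and B) for each. In 6 h straw, mycelium raised on glucose was washed and kept for 6 h with 1% ball-milled wheat straw as the carbon source. In 6 h starvation and 24 h starvation, the washed mycelium was kept for 6 or 24 h without any carbon source. In 48 h glucose, the mycelium was taken directly from 48 h of growth on 1% glucose, so that every culture passed through this stage and the glucose cultures differ from the others also in having been neither washed nor transferred. The study asked how far the response to straw is shared with the response to the loss of a carbon source.

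Starch is a chain of glucose units joined by α-1,4 bonds with α-1,6 branches, and fungi break it down outside the cell. Alpha-amylases cut within the chain, glucoamylase releases glucose from the chain ends, and α-glucosidases release glucose from maltose and short oligosaccharides. In Aspergillus the zinc cluster protein AmyR switches these genes on in the presence of starch or its breakdown products, while CreA represses many carbon-use genes when glucose is plentiful. Wheat straw consists mainly of cellulose, hemicellulose and lignin.

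Levels are given as RPKM, reads per kilobase of gene model and per 1000000 reads, where the deposited values count all reads of a file, aligned or not. Between 205778 and 979256 reads a library lay on genes, which was between 1.41% and 3.40% of all its reads. That share was 2.97% and 2.99% in the glucose libraries, 1.97% and 3.40% on straw, 1.47% and 1.79% at 6 h of starvation and 2.04% and 1.41% at 24 h. A lower share lowers every RPKM of a library, so counts per 1000000 reads on genes (CPM) are set beside the RPKM where the scale matters. Changes were tested with edgeR's quasi-likelihood test on the counts, with p-values adjusted by the method of Benjamini and Hochberg over 6357 genes. A gene was called when its adjusted p was below 0.05 and its mean RPKM differed at least 3-fold. Of the 5 genes, 4 had enough reads to be tested and aamA did not. In mycelium taken as a whole, fewer transcribing hyphae and less transcript per hypha cannot be told apart.

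glaA encodes glucoamylase, the enzyme that frees glucose from the ends of starch chains. It had 48.4 and 91.6 RPKM on straw, 52.5 and 64.8 RPKM at 6 h of starvation, 4.14 and 5.61 RPKM at 24 h of starvation, and 240 and 298 RPKM on glucose. No culture in the other conditions reached the level of either glucose culture, and both 24 h cultures lay below all 6 others. On glucose it stood in place 6 and place 5 of all genes by RPKM and took 4.32% ± 0.64 (SD, n = 2) of all reads on genes. At 24 h of starvation it stood in places 643 and 283 and took 0.144% ± 0.0667 of them (SD, n = 2).

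agdA encodes a secreted α-glucosidase and lies next to amyR on the chromosome. Its levels were 22.6 and 44.0 RPKM on straw, 21.0 and 20.4 RPKM at 6 h of starvation, 2.24 and 2.71 RPKM at 24 h of starvation, and 77.4 and 54.2 RPKM on glucose. The conditions fell in the same order as for glaA, with both 24 h cultures lowest and both glucose cultures highest. Its place among all genes was between 36 and 83 in the 6 libraries other than those of 24 h of starvation, where it was 1269 and 678.

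agdB is annotated by the study as a putative α-glucosidase of glycoside hydrolase family GH31 with starch as the substrate. Its levels ran the other way, at 33.4 and 53.4 RPKM on straw, 41.8 and 27.7 RPKM at 6 h of starvation, 118 and 28.6 RPKM at 24 h of starvation, and 8.55 and 7.50 RPKM on glucose. Both glucose cultures lay below all 6 others. The 24 h cultures differed 4.10-fold from each other, the widest gap between cultures of 1 condition for glaA, agdA or agdB. Culture A was the highest of all libraries and put agdB in place 11 among all genes, whereas culture B lay within the range of the cultures without glucose for 6 h.

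amyR, the activator gene, was read at a low level throughout. It had 47 and 60 reads on straw, 52 and 24 reads at 6 h of starvation, 9 and 1 reads at 24 h of starvation, and 65 and 57 reads on glucose. These correspond to 1.18 and 1.20 RPKM on straw, 0.935 and 0.690 RPKM at 6 h of starvation, 0.331 and 0.0394 RPKM at 24 h of starvation, and 1.75 and 1.30 RPKM on glucose. The order of the conditions by RPKM was that of its neighbour agdA, with both 24 h cultures lowest. The single read in 24 h culture B has an exact 95% Poisson interval of 0.0253 to 5.57 reads, which covers counting error only.

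aamA encodes acid α-amylase, which cuts within starch chains. It had no read in either straw culture, 1 and 0 reads at 6 h of starvation, none at 24 h of starvation, and 2 and 4 reads on glucose. Pooled over cultures it had 0 reads on straw, 1 in 6 h starvation, 0 in 24 h starvation and 6 on glucose. A count of 0 allows up to 3 reads in a library, which lies between the 2 and 4 reads of the glucose cultures. The gene was too rarely read to be tested, and no fold is given.

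**Figure D1:**
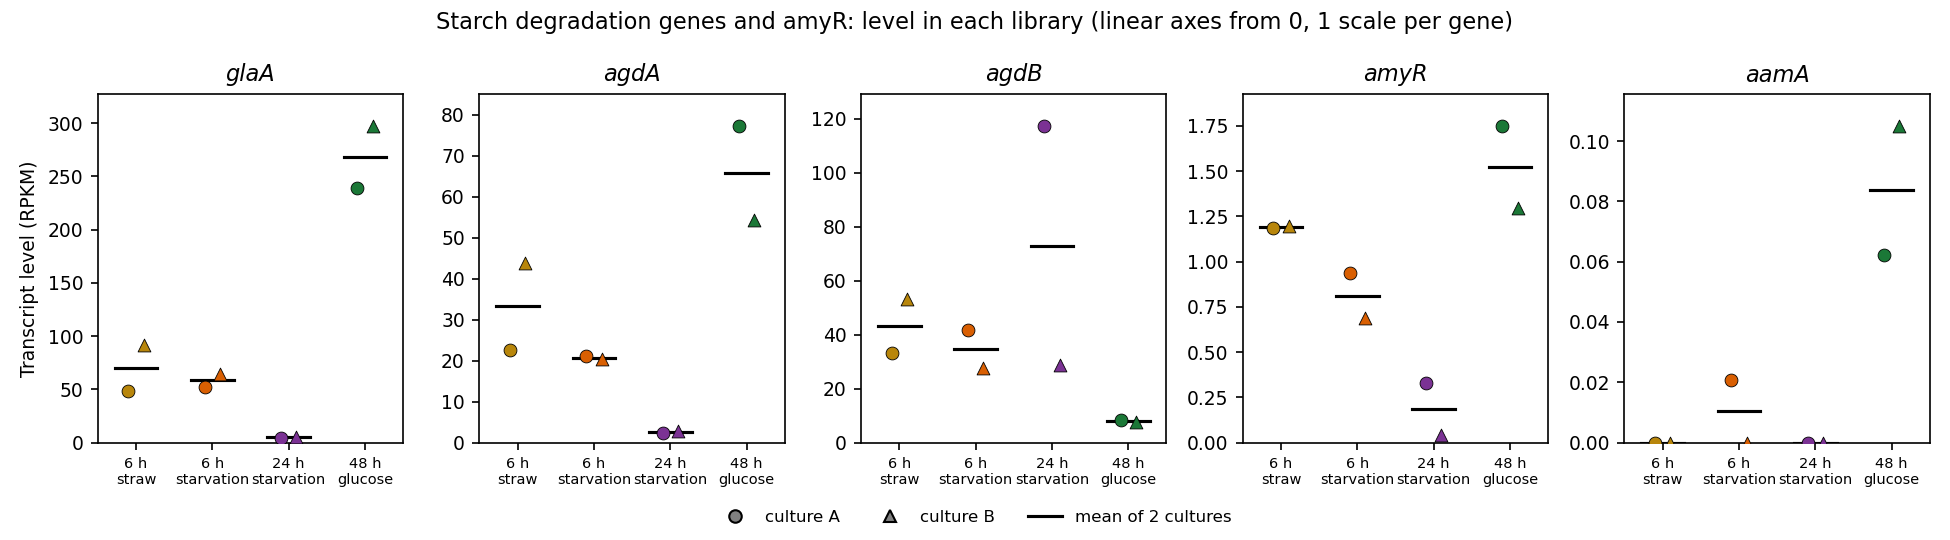
RPKM (linear vertical axes from 0, a separate scale for each gene) of the 5 genes in the 4 conditions, with circles for culture A, triangles for culture B and bars for the mean of 2 cultures. glaA and agdA were highest on glucose and lowest at 24 h of starvation, agdB was lowest on glucose, and aamA stayed at or under 0.105 RPKM.

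After 6 h on straw, 1 of the 4 tested genes was called lower than on glucose and 1 was called higher, where 11.2% of all tested genes were called lower and 10.8% higher. glaA averaged 70.0 ± 30.5 RPKM on straw and 269 ± 41.1 RPKM on glucose (SD, n = 2 each), a log2 fold change of -1.78 (SE 0.52, quasi-likelihood adjusted p = 0.0150 in edgeR). agdB averaged 43.4 ± 14.2 RPKM on straw and 8.02 ± 0.746 RPKM on glucose, a log2 fold change of 2.63 (SE 0.53, quasi-likelihood adjusted p = 0.000859 in edgeR). The call of glaA rested on single libraries. Without straw culture A its log2 fold change was -1.69 with an adjusted p of 0.0687, and without glucose culture B it was -1.59 with an adjusted p of 0.0658 in edgeR.

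agdA averaged 33.3 ± 15.1 RPKM on straw and 65.8 ± 16.3 RPKM on glucose, and this difference did not pass the test (log2 fold change -0.82, SE 0.45, quasi-likelihood adjusted p = 0.204 in edgeR). amyR was nearly level between straw and glucose, at -0.09 (SE 0.46) on the log2 scale with an adjusted p of 0.915 in edgeR. With all reads of the file as the library size the log2 fold change of amyR was -0.35, also without a call.

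After 6 h without a carbon source, agdB was the only gene of the 4 called against glucose, where 9.36% of all tested genes were called higher and 15.0% lower. It averaged 34.7 ± 10.0 RPKM at 6 h of starvation and 8.02 ± 0.746 RPKM on glucose (SD, n = 2 each), a log2 fold change of 3.14 (SE 0.54, quasi-likelihood adjusted p = 0.00018 in edgeR). glaA averaged 58.6 ± 8.69 RPKM at 6 h of starvation and 269 ± 41.1 RPKM on glucose, with a log2 fold change of -1.23 (SE 0.51) that missed the threshold at an adjusted p of 0.0730 in edgeR. It passed in 7 of the 19 alternative settings, among them DESeq2, where the adjusted p was 0.00884.

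The scale mattered in this comparison, because the starved libraries held a smaller share of reads on genes than the glucose libraries. The ratio of 6 h starvation to glucose for glaA was 0.218 in RPKM and 0.399 in CPM. For agdA the ratio was 0.315 in RPKM and 0.582 in CPM, and its log2 fold change of -0.68 (SE 0.45) did not pass (quasi-likelihood adjusted p = 0.262 in edgeR). amyR had a ratio of 0.533 in RPKM and 0.999 in CPM. Its fitted log2 fold change was 0.12 (SE 0.46, quasi-likelihood adjusted p = 0.863 in edgeR) and was -0.89 with all reads of the file as the library size, so no direction is given for it. That library size moved the median of all tested genes to -0.97 on the log2 scale. The 3 reference genes actA, An08g05910 and sarA were not called in any comparison. Their median log2 fold changes against glucose were 0.28 for straw, 0.51 for 6 h starvation and -0.27 for 24 h starvation. They did not move together. At 6 h of starvation the values were 0.51 for actA, -0.86 for An08g05910 and 0.92 for sarA, the last on 31 pooled reads.

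At 24 h of starvation all 4 tested genes were called against glucose, 3 lower and 1 higher, where 17.4% of all tested genes were called lower and 12.8% higher. glaA averaged 4.87 ± 1.04 RPKM at 24 h of starvation and 269 ± 41.1 RPKM on glucose, 55.1-fold lower (log2 fold change -5.12, SE 0.61, quasi-likelihood adjusted p = 2.59e-06 in edgeR). Of the 6357 tested genes, 175 had a lower log2 fold change than glaA. agdA averaged 2.47 ± 0.338 RPKM at 24 h of starvation and 65.8 ± 16.3 RPKM on glucose, 26.6-fold lower (log2 fold change -4.08, SE 0.51, quasi-likelihood adjusted p = 4.56e-06 in edgeR). In CPM, the ratio of 24 h starvation to glucose was 0.0334 for glaA and 0.0685 for agdA.

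amyR averaged 0.185 ± 0.206 RPKM at 24 h of starvation and 1.52 ± 0.322 RPKM on glucose, a log2 fold change of -2.46 (SE 0.60, quasi-likelihood adjusted p = 0.0032 in edgeR). Its pooled reads were 10 at 24 h of starvation and 122 on glucose, a ratio of 0.217 per read on genes with an exact 95% counting interval of 0.102 to 0.413. The size of the difference depended on which 24 h culture was used. Without 24 h culture A its log2 fold change was -4.36 and without culture B it was -1.87, and the call held in both cases (quasi-likelihood adjusted p = 0.00317 and 0.0405 in edgeR).

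agdB averaged 73.1 ± 62.8 RPKM at 24 h of starvation and 8.02 ± 0.746 RPKM on glucose, a log2 fold change of 3.64 (SE 0.56, quasi-likelihood adjusted p = 4.44e-05 in edgeR). Without 24 h culture A the ratio of mean RPKM was 3.57 and the log2 fold change 2.67, against a ratio of 14.6 and a log2 fold change of 4.19 without culture B. The call stood in both cases, with adjusted p of 0.000453 and 5.24e-06 in edgeR.

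**Figure D2:**
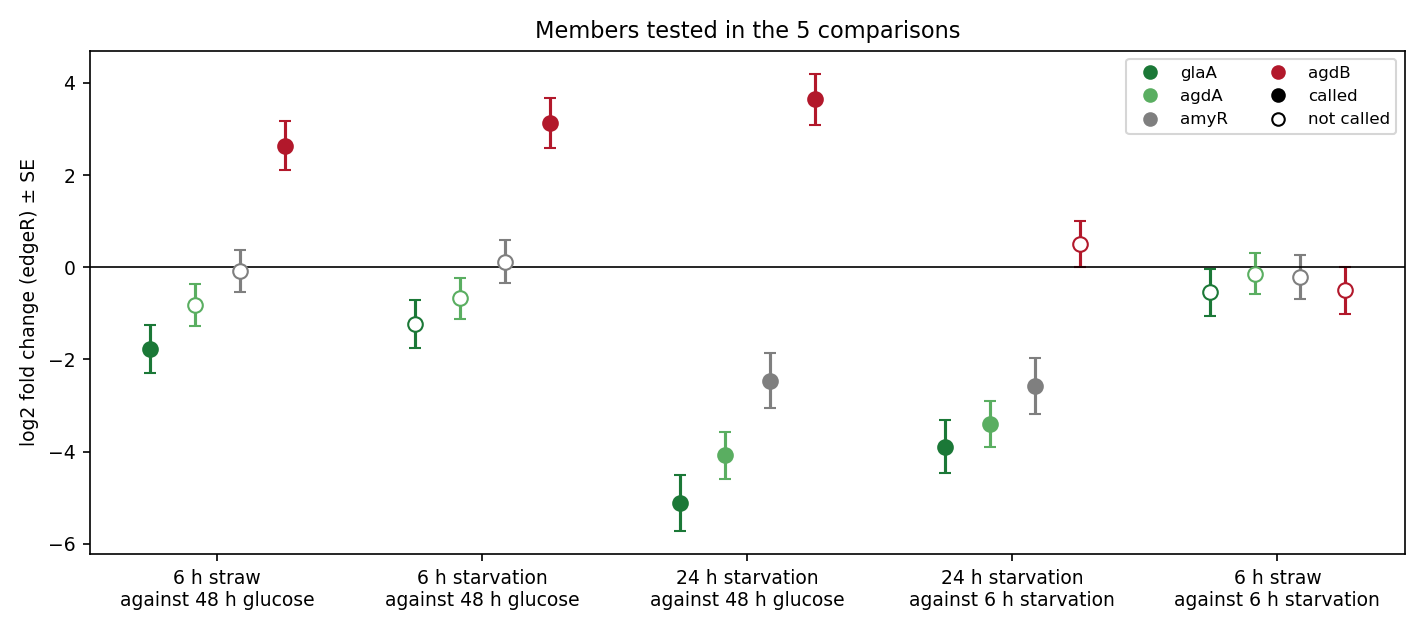
Log2 fold change with its standard error (vertical axis) of the 4 tested genes in the 5 comparisons (horizontal axis), with filled points for calls and open points for the rest. agdB lay at 2.63, 3.14 and 3.64 against glucose, whereas glaA, agdA and amyR lay lowest in the 2 comparisons of 24 h of starvation.

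Between 24 h and 6 h of starvation, glaA, agdA and amyR were called lower at the later time and no member was called higher, where 3.11% of all tested genes were called lower and 3.96% higher. glaA averaged 4.87 ± 1.04 RPKM at 24 h and 58.6 ± 8.69 RPKM at 6 h, 12.0-fold lower (log2 fold change -3.89, SE 0.57, quasi-likelihood adjusted p = 0.000203 in edgeR). Only 74 of the 6357 tested genes had a lower log2 fold change. agdA averaged 2.47 ± 0.338 RPKM at 24 h and 20.7 ± 0.463 RPKM at 6 h, 8.37-fold lower (log2 fold change -3.40, SE 0.49, quasi-likelihood adjusted p = 0.000182 in edgeR). The share of reads on genes was 2.04% and 1.41% at 24 h and 1.47% and 1.79% at 6 h, and the ratios in CPM were 0.0837 for glaA and 0.118 for agdA. This comparison shares the 24 h libraries with the comparison of 24 h starvation and glucose.

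The change of amyR between the 2 starvation times was -2.58 on the log2 scale (SE 0.61, quasi-likelihood adjusted p = 0.0102 in edgeR), on 10 pooled reads at 24 h and 76 at 6 h. Its call was lost without 24 h culture B (adjusted p = 0.0933) and without 6 h culture A (quasi-likelihood adjusted p = 0.0594 in edgeR). It was also lost with the 3 reference genes as the library size (adjusted p = 0.0909), with all reads of the file (adjusted p = 0.0557) and with only the 2 conditions fitted (quasi-likelihood adjusted p = 0.0518 in edgeR). The log2 fold change in these 5 settings lay between -2.52 and -1.91. The size rested on the 24 h cultures, with -4.47 without culture A and -2.01 without culture B.

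agdB gave no call between the 2 starvation times, at 73.1 ± 62.8 RPKM at 24 h and 34.7 ± 10.0 RPKM at 6 h (log2 fold change 0.51, SE 0.50, quasi-likelihood adjusted p = 0.660 in edgeR). The cultures overlapped, since 24 h culture B lay between the 2 cultures of 6 h. Without 24 h culture A the fold change had the other sign, at -0.45 on the log2 scale.

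Between straw and starvation at 6 h, none of the 4 genes was called, where 7.30% of all tested genes were called higher on straw and 5.13% lower. The log2 fold changes were -0.55 (SE 0.51) for glaA, -0.14 (SE 0.45) for agdA, -0.21 (SE 0.47) for amyR and -0.50 (SE 0.50) for agdB. Their adjusted p lay between 0.534 and 0.881 in edgeR. The direction depended on the scale, since all 4 values were positive with all reads of the file as the library size, between 0.26 and 0.68. In RPKM, agdA had 22.6 and 44.0 on straw against 21.0 and 20.4 at 6 h of starvation, and in CPM the ratio of the means was 0.950.

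By condition, the mean RPKM of glaA, agdA and amyR fell in the order glucose, straw, 6 h starvation and 24 h starvation. By the edgeR test, straw and 6 h starvation gave no difference for any of them, straw and glucose gave one for glaA, and 24 h and 6 h of starvation gave one for all 3. Failing the test does not mean that the cultures overlapped. In RPKM both straw cultures lay above both of 6 h starvation for agdA and amyR. Both lay below both of glucose for all 3 genes. For amyR this depended on the scale. In CPM its straw and glucose cultures overlapped, at 82.8 ± 30.4 and 88.7 ± 19.2 (SD, n = 2 each). Straw and 6 h starvation overlapped in CPM for both agdA and amyR. In CPM straw and 6 h starvation changed places, without overlap for glaA, at 12353 ± 819 on straw and 17237 ± 186 at 6 h of starvation for glaA and 4698 ± 404 and 4947 ± 790 for agdA (SD, n = 2 each). For agdB the order was 24 h starvation, straw, 6 h starvation and glucose. Its last step differed by the test, the step between straw and 6 h starvation did not, and the step between 24 h starvation and straw was not tested.

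Ratios of genes within a library do not depend on how the library is scaled, but they use the same counts as the levels above. The RPKM of agdB over that of agdA was 1.48 and 1.22 on straw, 1.99 and 1.36 at 6 h of starvation, 52.6 and 10.6 at 24 h of starvation, and 0.111 and 0.138 on glucose. Per length of gene model, agdA was thus above agdB in both glucose cultures, agdB was slightly above agdA in all 4 cultures of 6 h, and agdB was far above it in both 24 h cultures. The order at 6 h rests on the model lengths that the RPKM imply, 3853 bases for agdA and 2369 for agdB. In reads, agdA was above agdB in straw cultures A (1989 and 1807) and B (4880 and 3646). It was also above agdB in 6 h starvation culture B (1573 and 1313), but not in culture A (2597 and 3174). An exact permutation test over the 105 ways to split the 8 libraries into 4 pairs gave p = 0.0190 for a difference of this log2 ratio among the 4 conditions (adjusted p = 0.0381 over the 3 ratios tested). It does not say which conditions differ, and between only 2 conditions the smallest p is 0.333. The 3 ratios were chosen after the levels were seen, and glaA over agdB follows from the other 2. The test is thus no independent support for the course of agdB. Ratios to amyR were not tested.

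The ratio of glaA to agdA moved much less. It was 2.14 and 2.08 on straw, 2.495 and 3.18 at 6 h of starvation, 1.85 and 2.07 at 24 h of starvation, and 3.10 and 5.49 on glucose. glaA was above agdA in all 8 libraries, and the 24 h and glucose cultures did not overlap in this ratio. The ratio of glaA to agdB was 1.45 and 1.71 on straw, 1.26 and 2.34 at 6 h of starvation, 0.0352 and 0.196 at 24 h of starvation, and 28.0 and 39.7 on glucose. By the same exact permutation test p was 0.0381 for glaA over agdA and 0.0286 for glaA over agdB (adjusted p = 0.0381 for each).

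**Figure D3:**
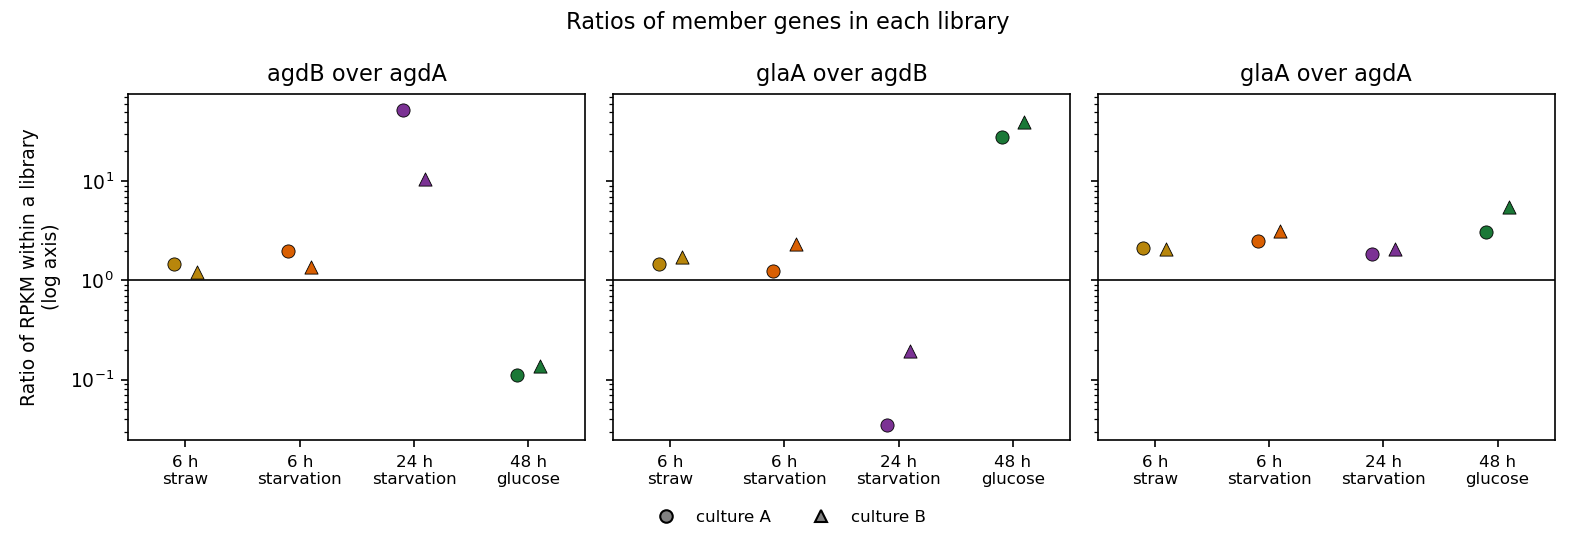
RPKM ratios within each library (log vertical axis) for agdB over agdA, glaA over agdB and glaA over agdA in the 4 conditions, with circles for culture A and triangles for culture B. agdB over agdA ran between 0.111 on glucose and 52.6 at 24 h of starvation, while glaA over agdA stayed between 1.85 and 5.49.

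Of the RPKM summed over the 5 genes, glaA made up 45.9% and 48.2% on straw, 45.1% and 57.1% at 6 h of starvation, 3.33% and 15.2% at 24 h of starvation, and 73.2% and 82.5% on glucose. agdB made up 31.6% and 28.1% on straw, 36.0% and 24.4% at 6 h of starvation, 94.6% and 77.4% at 24 h of starvation, and 2.61% and 2.08% on glucose. The set was thus led by glucoamylase in the 6 cultures other than those of 24 h of starvation, and by agdB in those. All 5 genes together took 2.03% and 2.17% of the reads on genes on straw, 2.95% and 2.55% at 6 h of starvation, 1.50% and 0.749% at 24 h of starvation, and 4.95% and 5.54% on glucose.

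The genes with the most similar profile were found by Pearson's r of log2 CPM over the 8 libraries, among tested genes with a mean of at least 20 reads. For this, CPM was scaled by the TMM factors of the edgeR fit and had a prior count of 2. The 8 points are 2 cultures each of 4 conditions, so any gene that moves with the conditions scores high. glaA and agdA were each other's closest gene of 3970 (r = 0.980). The next for glaA were An01g06240 (r = 0.969) and An11g09350 (r = 0.951), and the next for agdA were An11g03260 (r = 0.968) and An16g08950 (r = 0.954). A high r does not mean a change of like size. Mean RPKM on glucose and at 24 h of starvation was 1.47 and 0.369 for An01g06240 and 1.50 and 0.163 for An11g09350. For glaA it was 269 and 4.87. An11g03260 averaged 4.17 ± 0.834 RPKM on straw, 1.85 ± 0.865 RPKM at 6 h of starvation, 0.0822 ± 0.116 RPKM at 24 h of starvation and 5.19 ± 1.02 RPKM on glucose (SD, n = 2 each).

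amyR was not among the closest genes of the enzymes it activates. Its r was 0.843 to agdA (place 93 from agdA) and 0.800 to glaA (place 173 from glaA). It had only 9 and 1 reads in the 24 h cultures, so counting error alone can lower its r. These places do not show that amyR took a different course. Its own closest genes were An02g01760 (r = 0.975), An01g13650 (r = 0.967) and An18g04570 (r = 0.966), and agdA stood in place 65 of its list. For agdB the closest were An11g10730 (r = 0.994), An08g04350 (r = 0.991) and a gene model with no CBS 513.88 identifier (r = 0.987). All 3 share with agdB the wide gap between the 24 h cultures, with SDs at 24 h of 0.734, 1.89 and 2.59 RPKM. The r of agdB was -0.723 to glaA, -0.631 to agdA and -0.304 to amyR.

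amyR and agdA are adjacent, and in the CBS 513.88 reference assembly An04g06880, An04g06890 and An04g06900 precede them and An04g06930, An04g06940 (PrtT, the regulator of secreted protease genes) and An04g06950 follow. Of these 6 neighbours 5 were tested, and none was called lower in any of the 5 comparisons. Of all tested genes, between 3.11% and 17.4% were called lower in a comparison. With 5 genes, nothing particular to the locus is drawn from this count. At 24 h of starvation against glucose the log2 fold change was -1.43 (SE 0.70) for An04g06890, -0.33 for An04g06900, 0.60 for An04g06930 and 0.11 for PrtT, none of them called, beside -2.46 for amyR and -4.08 for agdA. An04g06890 had 8 pooled reads at 24 h of starvation and 48 on glucose, and its difference missed the threshold (quasi-likelihood adjusted p = 0.121 in edgeR). PrtT had 2.87 and 2.22 RPKM at 24 h of starvation against 2.95 and 4.13 RPKM on glucose. An04g06930 also belongs to the list of α-glucan genes given below. An04g06950 was called higher against glucose in all 3 comparisons, with log2 fold changes of 2.88 on straw, 3.23 in early and 2.32 in late starvation (quasi-likelihood adjusted p = 0.00109, 0.000365 and 0.00906 in edgeR), on 5 and 6 reads in the glucose cultures.

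**Figure D4:**
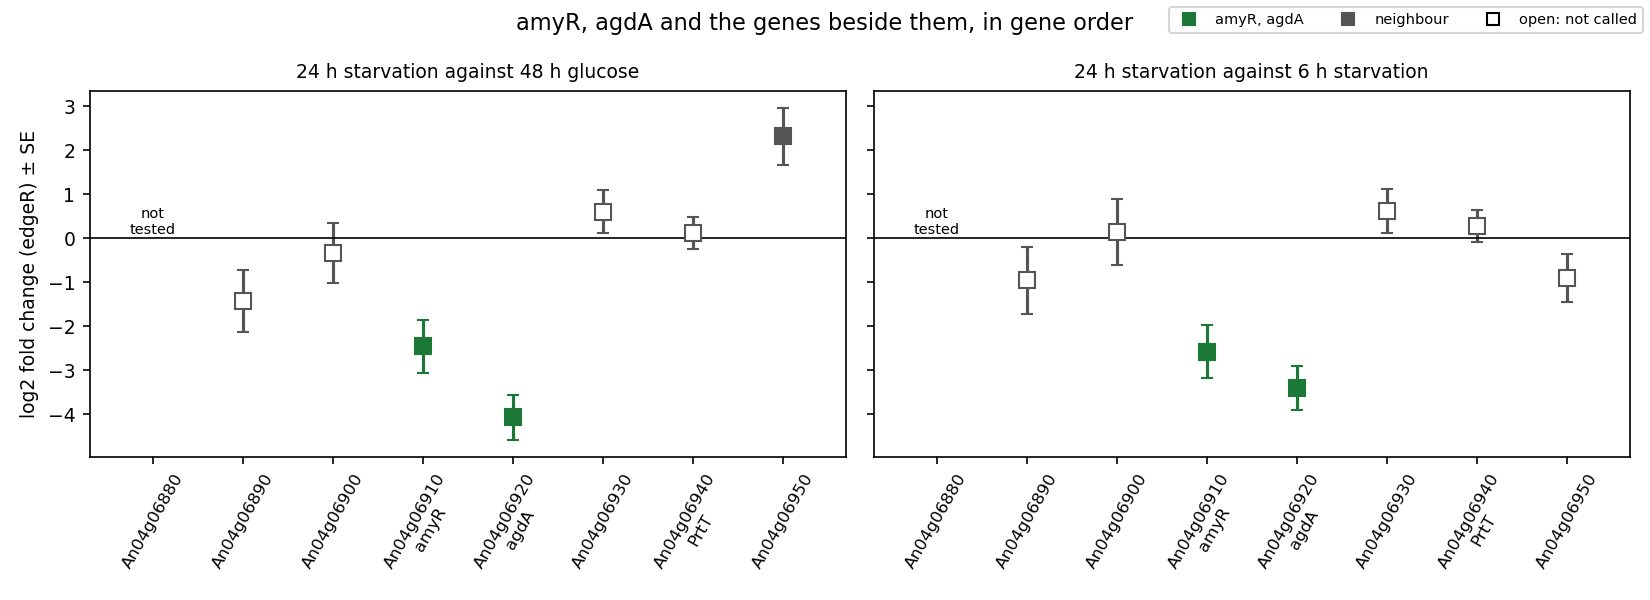
Log2 fold change with its standard error (vertical axis) of amyR, agdA and the genes beside them in gene order (horizontal axis), for 24 h of starvation against glucose and against 6 h of starvation. amyR (-2.46 and -2.58) and agdA (-4.08 and -3.40) were called lower, and the neighbours tested lay closer to 0 or, for An04g06950 against glucose, above it.

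Other genes of α-glucan synthesis and breakdown, in a list of 19 identifiers, moved in both directions. Of these, 18 had a row in the tables and 14 were tested. Of the 14, 5 were called lower and 1 higher on straw against glucose, 3 lower and 2 higher at 6 h of starvation against glucose, and 4 lower and 3 higher at 24 h of starvation against glucose. Between 24 h and 6 h of starvation 1 was called higher, and between straw and 6 h starvation 1 was called higher and 1 lower. The shares of all tested genes called against glucose were 11.2% lower and 10.8% higher on straw, 15.0% and 9.36% in 6 h starvation, and 17.4% and 12.8% in 24 h starvation. Nothing particular to the list is drawn from these counts. Leaving out agdF, which had no read on glucose, the list's median log2 fold change against glucose was -1.27 for straw, -0.23 for 6 h of starvation and 0.39 for 24 h, beside medians of 0.01, 0 and -0.02 over all tested genes. Against 6 h of starvation the median of the 14 was 0.04 at 24 h of starvation and -0.81 on straw.

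No gene annotated as an α-amylase reached a level near that of glaA. An01g13610, a putative α-amylase gene, had 49 reads over all 8 libraries and was not tested. An05g02100, listed as amyA in the reference table, had no read in any library. An12g06930, listed under the same symbol, was not among the genes counted. The authors' counts hold only reads aligned to 1 place, so reads shared by near-identical gene copies would not be counted. Why An05g02100 had no read was not tested. agdF (An18g05620), a putative glucosidase II gene of family GH31 like agdB, had 137 and 353 reads on straw, 7 and 6 reads at 6 h of starvation, 2 and 1 reads at 24 h of starvation and none on glucose. Against a floor of 3 reads over the glucose cultures it was, per all reads of the files, at least 148-fold higher on straw and at least 3.89-fold higher at 6 h of starvation, and its call at 24 h rested on 3 reads.

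Of the genes annotated for cell wall glucan, 1 went in opposite directions on straw and in starvation and 1 was called lower in every comparison with glucose. agsD (An02g03260), annotated as a putative α-1,3-glucan synthase gene, had 3 and 1 reads on straw, 138 and 42 reads at 6 h of starvation, 249 and 125 reads at 24 h of starvation, and 21 and 19 reads on glucose. It was called lower on straw and higher at both starvation times against glucose, with log2 fold changes of -3.16, 2.94 and 4.36 (quasi-likelihood adjusted p = 0.00347, 0.000188 and 3.23e-06 in edgeR), and lower on straw than at 6 h of starvation (-6.10). An12g02450, annotated by the study with cell wall and glucan terms, had 4 and 6 reads on straw, 4 and 13 reads at 6 h of starvation, 5 and 3 reads at 24 h of starvation, and 439 and 707 reads on glucose. It was called lower in all 3 comparisons with glucose, between -6.76 and -5.15 on the log2 scale.

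Its neighbour by identifier, An12g02460, had 1 and 9 reads on straw, 4 and 8 reads at 6 h of starvation, 0 and 1 reads at 24 h of starvation, and 396 and 508 reads on glucose. It and An04g09890 were called lower in the same 3 comparisons, An04g09890 with log2 fold changes of -2.53 on straw, -2.11 in 6 h starvation and -3.36 in 24 h starvation. An15g07810 was called lower on straw against glucose (-1.73) and higher at the later than at the earlier starvation time (1.33, quasi-likelihood adjusted p = 0.0416 in edgeR). At 24 h of starvation against glucose An09g03070 was called higher (2.19) and An09g03100 lower (-1.11).

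**Figure D5:**
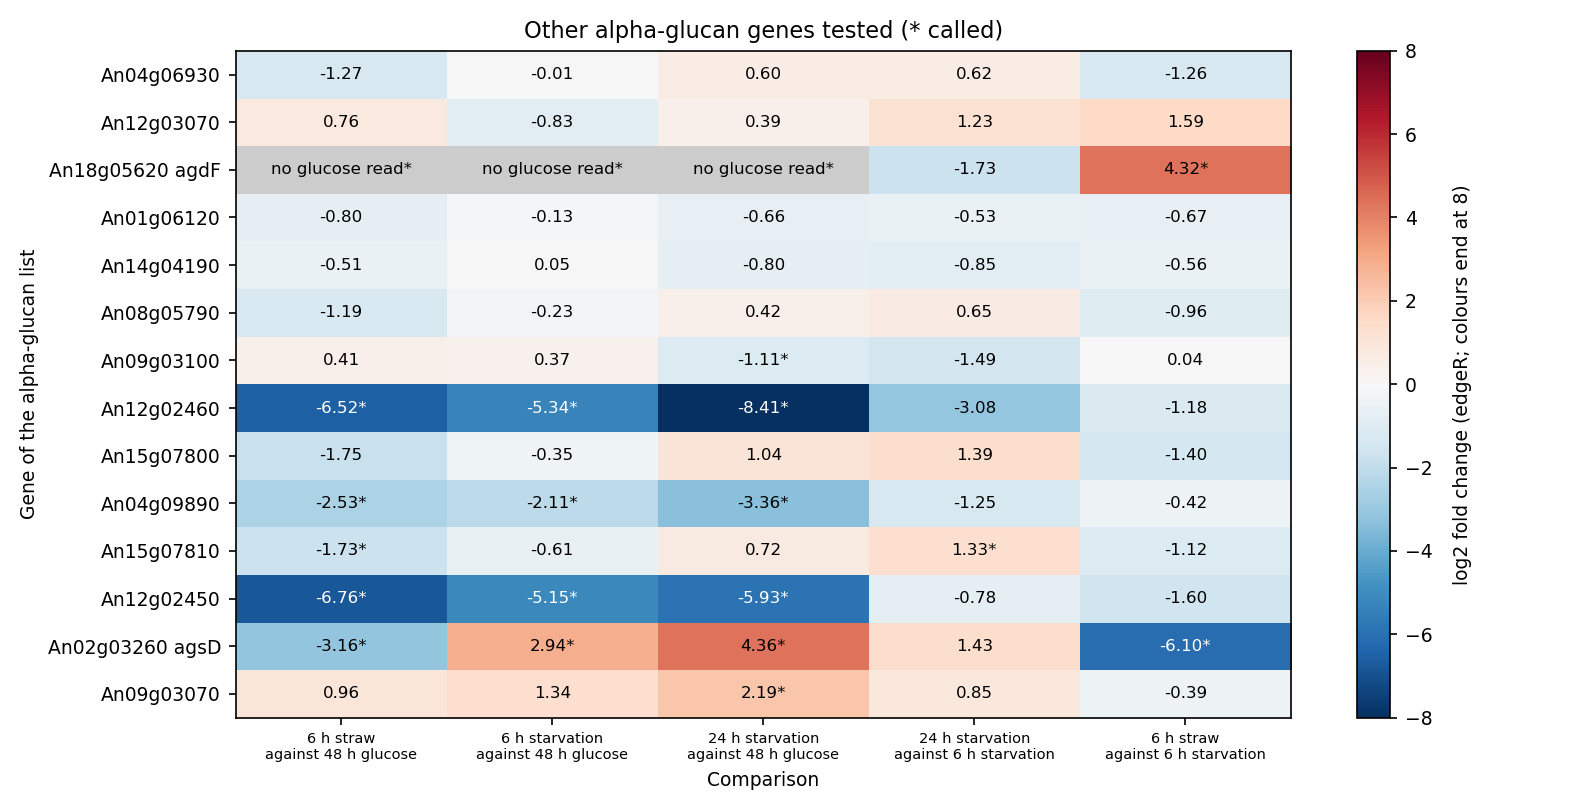
Log2 fold changes of the 14 tested genes of the α-glucan list (rows) in the 5 comparisons (columns), red for higher and blue for lower, with an asterisk for a call and grey for agdF against glucose, where it had no read. An12g02450, An12g02460 and An04g09890 were called lower in the 3 comparisons with glucose, and agsD was higher in both starvation comparisons with glucose but lower on straw.

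Of 4 other regulator genes set beside amyR, only xlnR (An15g05810), which encodes the activator of xylan-degrading genes, was called. It was higher in all 3 comparisons with glucose. Of all tested genes, 10.8% were called higher on straw, 9.36% at 6 h of starvation and 12.8% at 24 h of starvation. xlnR had 2.38 and 4.33 RPKM on straw, 2.02 and 2.32 RPKM at 6 h of starvation, 1.31 and 1.20 RPKM at 24 h of starvation, and 0.196 and 0.375 RPKM on glucose. Its log2 fold changes against glucose were 3.70 for straw, 3.87 for 6 h starvation and 2.71 for 24 h starvation (quasi-likelihood adjusted p = 2.82e-06, 2.19e-06 and 9.09e-05 in edgeR). Between 24 h and 6 h of starvation xlnR had a log2 fold change of -1.16 that did not pass (quasi-likelihood adjusted p = 0.084 in edgeR), beside -2.58 for amyR. creA (An02g03830), the gene of the glucose repressor, had log2 fold changes of 0.60 for straw, -0.59 for 6 h starvation and 0.33 for 24 h starvation against glucose, none of them called. An04g08600 and An15g00300 were not called in any comparison. creA and these genes had between 20 and 133 pooled reads a condition, so modest changes could be missed.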

How the data were processed

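RNA from A. niger N402 mycelium had been depleted of ribosomal RNA and sequenced on the SOLiD platform. The authors aligned the reads to the ATCC 1015 genome (Aspni5) and counted uniquely aligned reads per gene with HTSeq. The deposited files give these counts and the RPKM that the authors computed from them, and the counts and RPKM imply that RPKM was taken per 1000000 of all reads of a file. The 5 rows of each file that name no gene were left out of library sizes and tests, and they held between 96.6% and 98.6% of the reads. Symbols came from the RefSeq gene table of CBS 513.88 (assembly ASM285v2), in which 14069 of the 14114 CBS identifiers were found. No coordinates or sequences are given, since the table's assembly is not the one of the files and a planned search of promoters and proteins was not done.

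Counts of 8 libraries were fitted together in edgeR 4.0.16 (R 4.3.3) with filterByExpr on condition and TMM factors (0.901 to 1.15), 1 term per condition and 4 residual degrees of freedom. A standard error is the log2 fold change divided by the root of the F statistic. SDs are over 2 cultures. Ratios of genes within a library were compared among conditions by an exact permutation test, added after the data were seen. The members and gene lists were chosen with earlier results of these data known. Named genes were the 5 members, the 3 genes closest to each tested member, the neighbours of amyR and agdA within 3 steps by identifier, and the called genes of a list of 19 α-glucan genes and of a list of 4 regulators. Other list genes are given by count, except those named for starch-cutting enzymes and creA, which were chosen after their values were seen. Alternatives were RLE factors, other library sizes (reads on genes, all reads, 3 reference genes), no filter, DESeq2 1.42.0, a replicate block, only 2 conditions, other call rules and each library left out. A call rule with RPKM per reads on genes was added after seeing the data. The letters A and B were treated as names, since neither the labels nor the methods say whether they pair cultures. The correlation of deviations from the condition mean between libraries of the same letter lay between -0.066 and 0.276, which does not settle it. Figures were drawn with matplotlib.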

Additional observations from a re-analysis of the deposited data

Results flagged for a closer look

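For 3 genes the effect of starvation, measured against the same glucose cultures, differed between the 2 starvation times by the direct contrast of 24 h with 6 h of starvation. The log2 difference was -3.89 for glaA (adjusted p = 0.000203), -3.40 for agdA (adjusted p = 0.000182) and -2.58 for amyR (adjusted p = 0.0102, edgeR's quasi-likelihood test), lower at 24 h in both cultures of each gene. Per 1000000 reads on genes, the ratio of 24 h to 6 h of starvation was 0.0837 for glaA, 0.118 for agdA and 0.186 for amyR. Conditions held 2 cultures each, so no culture could be tested as standing apart from its group.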

How the results depend on the processing

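At 24 h of starvation against glucose, the calls of glaA, agdA, amyR and agdB held under all 19 alternatives, with log2 fold changes of -5.78 to -4.75, -4.73 to -3.76, -4.36 to -1.87 and 2.67 to 4.19. For straw against glucose, 1 or 2 members were called with a library left out, with glaA lost without glucose culture B or straw culture A. For 6 h of starvation against glucose, 1 member was called, against 2 with reads on genes as the library size, with no low-count filter, with DESeq2 and with the replicate block, and 3 with all reads of the file. Leaving out single libraries gave 1 or 2, with glaA gained without either 24 h culture. In that comparison the adjusted p of glaA ranged between 0.00742 and 0.221, and the block gave 0.0483 (edgeR's quasi-likelihood test for these). Whether the letters pair cultures is not known, and the block changed no other call of a member. For 24 h against 6 h of starvation, amyR kept its call in 14 of 19 alternatives and glaA and agdA in all. With all reads of the file as the library size, 1411 genes were called lower and 731 higher at 24 h of starvation against glucose, against 1107 and 813, and 1826 lower and 519 higher at 6 h of starvation, against 951 and 595. With the 3 reference genes, 638 genes were called lower and 825 higher at 24 h. No called value of a member changed sign. The planned sequence search was not run. Low depth limits amyR at 24 h of starvation and aamA everywhere, and 2 cultures a condition limit all comparisons.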
